A study of Mus musculus with 21 samples.

Results

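The ventral pons on the side opposite a cut facial nerve was compared between 30 and 14 days after the operation. The members were 6 of the 21 libraries of the series, 3 of the contralateral pons at day 30 and 3 of the contralateral pons at day 14, and the 22294 genes with a summed count of at least 30 over all 21 libraries. All mice were C57BL/6 of the line CX3CR1GFP/wt, in which a green fluorescent protein replaces 1 copy of a microglial chemokine receptor gene, and at 8 weeks the facial nerve on the right was severed where it leaves the skull. Day 30 contralateral mice were therefore 12 weeks old and day 14 contralateral mice 10 weeks old, and both groups carried the operation. Groups used for context were the lesion side at days 30 and 14, the contralateral side at day 7 (9 weeks old) and the left pons of unoperated mice at day 0 (8 weeks old), with 3 libraries each.

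The facial nucleus holds the motor neurons that move the muscles of the face, and each nucleus sends its axons into the nerve of its own side. Cutting that nerve axotomises the neurons of 1 side, which switch on growth and stress genes while microglia gather around them, and the opposite nucleus is commonly used as the uninjured comparison within the same animal. The tissue block was larger than the nucleus: it also held parts of neighbouring reticular and trigeminal nuclei, so its RNA came from many neurons, glia and vessels. In such bulk RNA, fewer cells of a type and less RNA per cell cannot be told apart.

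Messenger RNA was counted as single 50-base reads, and libraries held 17956784 to 21908496 counts at day 30 and 19221145 to 21782564 at day 14. Levels are given below in CPM, read counts scaled to 1 common library total with TMM factors. The lesion genes checked the labels: Atf3, a stress transcription factor of cut neurons, had 38, 33 and 30 raw counts in the day 30 contralateral libraries and 26, 25 and 26 in the day 14 contralateral libraries. Lesion libraries of these days held 300, 492 and 493 counts of Atf3 at day 30 and 1233, 1907 and 2176 at day 14, so every one of the 6 contralateral libraries lay far below the lesion side. Sprr1a, another gene of regenerating neurons, had 22, 4 and 4 counts at day 30 and 5, 4 and 6 at day 14, so day 30 replicate 1 stood above the other 5 libraries, and the log2 difference of 1.03 ± 1.37 was -0.24 without it. Nothing in the labels says that replicates came from separate animals, and p-values here measure the spread between these samples. Age, day after the operation and the lane code in the deposited column names (L003 for day 30, L002 for day 14) changed together and cannot be told apart. Lesion libraries carried the lane code of their day, and day 7 and day 0 libraries carried a further code. Comparisons with those groups share this limit.

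Few genes were called between the 2 contralateral groups in the fit to all 21 libraries, and other fits gave 0 to 1224 calls. At an adjusted p under 0.05 (edgeR's quasi-likelihood test, Benjamini-Hochberg over all genes tested) 91 of 22294 genes were called, or 0.408%, of which 39 (0.175%) were higher and 52 (0.233%) lower at day 30. Called differences were small: the absolute log2 difference ran from 0.22 to 1.67 with a median of 0.35. Before rounding 1 gene, Hspa1b, reached 1, and Rpl22-ps1 came to 1 only by rounding. Groups of 3 that do not overlap were common among all genes tested, higher at day 30 in 10.8% and lower in 11.6%, and all 91 called genes had them, which the call itself makes likely. An unadjusted p under 0.05 was reached by 2877 genes, and the median log2 difference of all genes tested was 0.006.

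The count depended on every library. Without day 30 replicate 1, 2 or 3 there were 2, 3 and 2 calls, and without day 14 replicate 1, 2 or 3 there were 0, 12 and 3. None of the 84 called genes with an established name was called in all 6 of these fits, and none changed direction in any fit. DESeq2 called 509 genes, limma-voom 15, and limma on the deposited log2 matrix 1. Leaving out the mitochondrially encoded genes gave 29 calls. A fit to only the 6 libraries compared gave 1224, no filter beyond 1 count gave 374, and the replicate number as a block gave 353. For that reason values are given below as measured levels with their spread, and a call is the result of 1 fit to all 21 libraries.

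Genes encoded in mitochondrial DNA stood higher at day 30. This small circular genome codes for core subunits of the respiratory chain and for the ribosomal and transfer RNAs that translate them. mt-Rnr2, the large mitochondrial ribosomal RNA (GRCm38 chrM:1094-2675), had 5220, 4170 and 4600 CPM in day 30 libraries and 2860, 3080 and 2950 CPM in day 14 libraries. All 3 day 30 libraries lay above all day 14 libraries, by a log2 difference of 0.65 ± 0.09 (SE, adjusted p = 0.0049, edgeR). It was the called gene that lasted longest when libraries were left out, being called in 5 of 6 such fits, with an adjusted p of 0.077 without day 14 replicate 1.

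The small ribosomal RNA mt-Rnr1 averaged 2810 ± 270 CPM at day 30 and 1770 ± 120 CPM at day 14 (SD, n = 3 each), a log2 difference of 0.67 ± 0.1. mt-Co1, a catalytic subunit of cytochrome c oxidase, had 14000, 14500 and 16500 CPM at day 30 and 9720, 10500 and 9960 CPM at day 14, and rose by 0.58 ± 0.09 (adjusted p = 0.0097, edgeR). mt-Cytb, the cytochrome b subunit of complex III, averaged 13600 ± 1200 CPM at day 30 and 9130 ± 190 CPM at day 14, and rose by 0.58 ± 0.12. The groups did not overlap for any of these genes, and day 30 replicate 3 was the highest library for both protein-coding genes. Reads assigned to the glutamine transfer RNA gene mt-Tq were also higher (0.82 ± 0.18), at low counts of 4.89 ± 0.27 CPM at day 30 and 2.77 ± 0.28 CPM at day 14. This gene is 71 bases long and overlaps mt-Ti on the opposite strand, so its reads cannot be credited to that transfer RNA alone. It was called in 0 of 6 fits that left out a library. With the length offsets described below it was at 0.5 ± 0.2 (adjusted p = 0.36, edgeR).

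Of 15 mitochondrial ribosomal RNA and protein genes 4 were called, all higher, and the log2 difference was above 0 in 15 of 15, with a median of 0.58 beside 0.006 for all genes tested. Members that missed the threshold ran from 0.33 for mt-Nd4l to 1.27 for mt-Atp8, both of which had under 3 CPM in each group. Mitochondrial transcripts together made up 6.66% ± 0.54 of counts at day 30, with libraries between 6.31% and 7.29%, and 4.59% ± 0.15 at day 14, with libraries between 4.48% and 4.76% (exact permutation test, two-sided p = 0.1, the smallest that 3 against 3 libraries can give). The genes for the nuclear-encoded subunits of the same chain moved less: 1 of 74 was called, the complex I subunit Ndufs5 (24 ± 0.73 CPM at day 30, 18 ± 1.1 CPM at day 14, 0.41 ± 0.1), and their median was 0.16. In the contralateral pons that median was -0.01 for day 30 minus day 7 and -0.17 for day 14 minus day 7. Copies of mitochondrial genes lie in nuclear chromosomes, so reads could be split between both by the alignment.

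**Figure D1:**
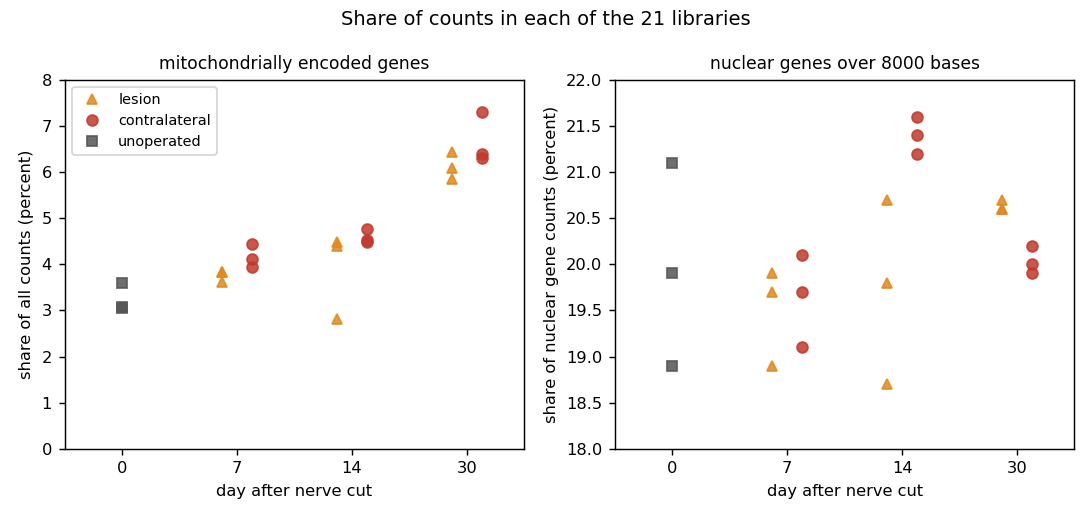
Each point is 1 library, by day after the nerve cut, with lesion, contralateral and unoperated libraries marked apart. On the left, the mitochondrial share of counts (percent, axis from 0) was 6.31% to 7.29% in the day 30 contralateral pons and 4.48% to 4.76% in the day 14 contralateral pons. On the right, the share of nuclear gene counts in genes over 8000 bases (percent, axis from 18) was 19.9% to 20.2% at day 30 and 21.2% to 21.6% at day 14 on that side.

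Among heat shock and chaperone genes, which hold or refold damaged proteins, 3 of 24 were higher and 1 was lower. Hspa1b, an inducible Hsp70 (GRCm38 chr17:34956436-34959238, minus strand), had 4.82, 2.36 and 3.95 CPM in day 30 libraries and 1.22, 0.986 and 1.28 CPM in day 14 libraries. Every day 30 library lay above every day 14 library, and Hspa1b had the largest called log2 difference, 1.67 ± 0.29 (adjusted p = 0.015, edgeR). It remained called in 1 of 6 fits that left out a library, and its adjusted p reached 0.099 without day 30 replicate 3.

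The neighbouring gene Hspa1a (chr17:34969190-34972156) encodes a nearly identical Hsp70, so reads may be split between the pair and the single values are uncertain. It had 5.1, 2.98 and 2.63 CPM at day 30 and 1.86, 1.87 and 2.65 CPM at day 14, groups that overlap (0.75 ± 0.24, adjusted p = 0.16, edgeR). Without day 30 replicate 1 its log2 difference was 0.39, and over the 6 fits without 1 library its adjusted p ran from 0.15 to 0.6. Heat shock factor 1, the main activator of the inducible Hsp70 genes, binds arrays of the inverted letters GAA and TTC. The 250 bases before the RefSeq start of both genes (GRCm38.p6, minus strand, Hspa1b at chr17:34959239-34959488 and Hspa1a at chr17:34972157-34972406) are shown because this pair holds the largest difference. Capitals mark the match to GAANNTTC.
Hspa1b: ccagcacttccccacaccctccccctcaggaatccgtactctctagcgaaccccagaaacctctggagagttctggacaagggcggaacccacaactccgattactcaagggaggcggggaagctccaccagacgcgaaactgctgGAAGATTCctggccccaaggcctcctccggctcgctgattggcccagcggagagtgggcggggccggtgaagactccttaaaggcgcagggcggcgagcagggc
Hspa1a: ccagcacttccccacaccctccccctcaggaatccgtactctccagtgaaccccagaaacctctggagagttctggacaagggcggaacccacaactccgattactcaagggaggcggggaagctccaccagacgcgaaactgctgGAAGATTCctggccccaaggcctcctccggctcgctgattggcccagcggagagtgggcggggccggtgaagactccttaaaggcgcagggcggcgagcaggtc

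The 2 windows were identical at 247 of 250 positions, and each held GAANNTTC once, at position -104 from the start. That motif occurred in 6.69% of 32851 RefSeq promoter windows of the same length, and TTCNNGAA in 7.17%; each reads the same on both strands. Neither motif occurred in the windows of Dnajb1 or Hspa4l. These matches describe letters only.

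Dnajb1, an Hsp40 that works with Hsp70, had 78.1, 72.1 and 79 CPM at day 30 and 54.4, 57.3 and 63.4 CPM at day 14, and rose by 0.39 ± 0.08 (adjusted p = 0.038, edgeR). Cryab, a small heat shock protein abundant in oligodendrocytes and astrocytes, averaged 267 ± 19 CPM at day 30 and 213 ± 2.8 CPM at day 14, and rose by 0.33 ± 0.07. In the unoperated pons at day 0 Cryab had 322, 348 and 347 CPM, above each day 30 library. The Hsp110-family gene Hspa4l went the other way, at 166 ± 11 CPM at day 30 and 209 ± 7.9 CPM at day 14 (-0.33 ± 0.07, adjusted p = 0.038, edgeR). The list had a median of 0.06, with 17 of 24 members above 0, and a shift of the list as a whole was not tested.

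Among cytosolic ribosomal protein genes, whose products build the ribosome, 7 of 79 were called higher (8.86%) and 0 lower, beside 0.408% of all genes tested. The median log2 difference was 0.27. Called shares were larger for mitochondrially encoded (26.7%), heat shock and chaperone (16.7%), neurofilament and large-neuron (13.3%) and myelin genes (10%). Rpl34 had 40.6, 42.9 and 42.8 CPM at day 30 and 30.1, 31.9 and 34.3 CPM at day 14 (0.39 ± 0.08, adjusted p = 0.042, edgeR). Rps3, a subunit with a further role in DNA repair, averaged 394 ± 21 CPM at day 30 and 309 ± 4.6 CPM at day 14 (0.35 ± 0.07). The other called members were Rpl12 (0.56 ± 0.12), Rpl35a (0.41 ± 0.09), Rpl23 (0.38 ± 0.09), Rps20 (0.35 ± 0.08) and Rpl22 (0.26 ± 0.06). Over the whole list, 55 of 79 members had all 3 day 30 libraries above all 3 day 14 libraries and 0 had them below. Among all genes tested the shares were 10.8% above and 11.6% below, a background not matched for gene length.

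In sum, the 79 genes took 3870 to 4210 CPM at day 30 and 3310 to 3350 CPM at day 14. They took 3640 to 3880 CPM in the contralateral pons at day 7 and 3470 to 4270 CPM at day 0. The pseudogene Rpl22-ps1 (GRCm38 chrX:8038611-8038996) had 4.72, 4.73 and 4.51 CPM at day 30 and 2.45, 2.39 and 2.15 CPM at day 14, a log2 difference of 1 ± 0.16 (adjusted p = 0.0097, edgeR). Ribosomal protein genes have many processed copies with near-identical sequence, so a 50-base read can match several of them and the single values are uncertain. These genes are also short, with a median of 1535 bases beside 2962 for all genes tested. Short genes as a class were higher at day 30 than at day 14, as given below.

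Gas5, a long noncoding RNA that hosts small nucleolar RNAs and belongs to the same class of growth-regulated transcripts as ribosomal protein messages (GRCm38 chr1:161034422-161038539), had 106, 113 and 109 CPM at day 30 and 74.6, 82 and 85.5 CPM at day 14. It rose by 0.44 ± 0.07 (adjusted p = 0.0097, edgeR), with every day 30 library above every day 14 library, and was the single called gene among 15 nuclear long noncoding RNAs, whose median was -0.02. It was called in 2 of 6 fits that left out a library, and its adjusted p reached 0.086 without day 14 replicate 1. Its exons contain 10 smaller annotated RNA genes on the same strand, so its reads cannot be fully told apart from theirs.

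Other genes among the 12 largest increases were Gstt1, a glutathione transferase (16.3 ± 0.99 CPM at day 30, 11.8 ± 1.2 CPM at day 14, 0.47 ± 0.09), and Tmem256, a small membrane protein gene (43 ± 1.7 CPM at day 30, 31 ± 1.4 CPM at day 14, 0.47 ± 0.11). Both had separate groups.

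**Figure D2:**
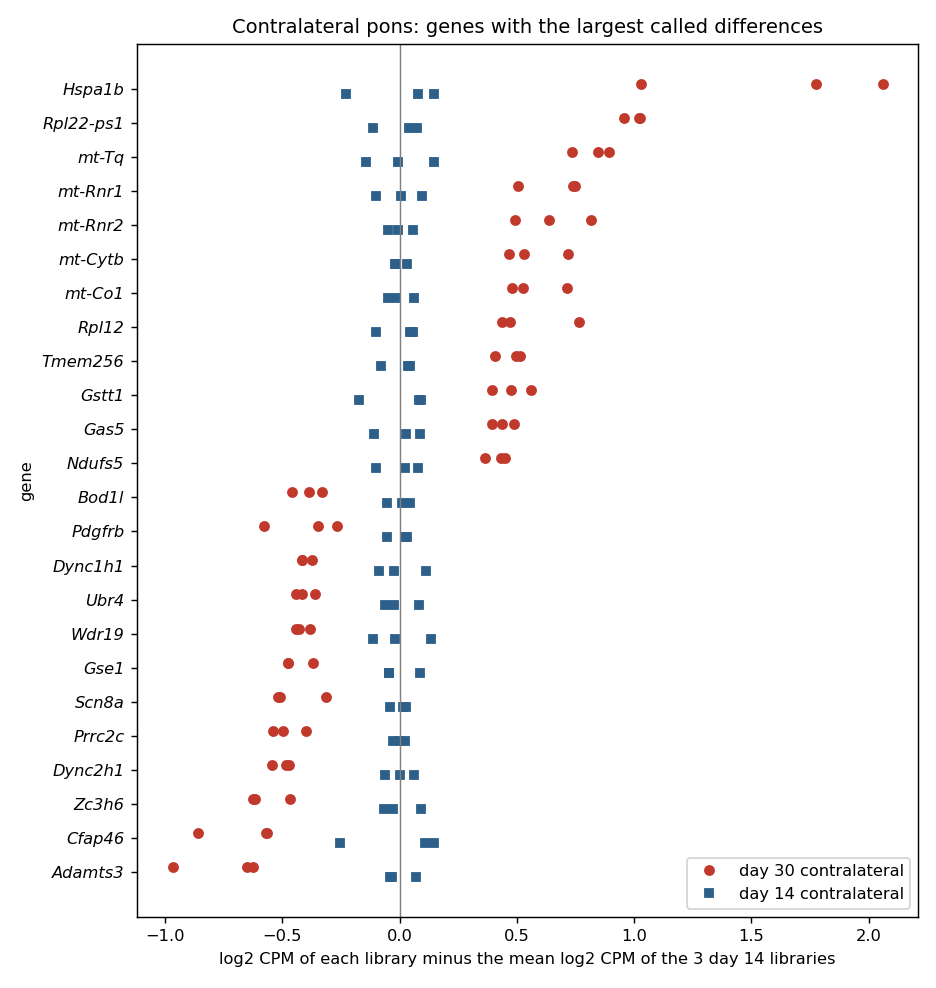
Each point is the log2 CPM of 1 contralateral library minus the mean log2 CPM of the 3 day 14 libraries, for the 12 higher and 12 lower called genes with the largest difference. Genes were shown only if the day 30 libraries (circles) and the day 14 libraries (squares) did not overlap, and Hspa1b has the widest spread at day 30, between 2.36 and 4.82 CPM.

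Among the 52 lower genes, Dync1h1 had one of the smallest adjusted p-values. Dync1h1, the heavy chain of cytoplasmic dynein, the motor that carries cargo along axons towards the cell body (GRCm38 chr12:110601452-110666945), had 784, 761 and 762 CPM at day 30 and 1100, 957 and 999 CPM at day 14. The groups did not overlap, and it fell by 0.41 ± 0.07 on the log2 scale (adjusted p = 0.0097, edgeR). It was called in 2 of 6 fits that left out a library, and its adjusted p reached 0.079 without day 14 replicate 1. Dync2h1, the dynein heavy chain of cilia, had 35.1, 34.8 and 33.4 CPM at day 30 and 46.6, 50.8 and 48.8 CPM at day 14 (-0.5 ± 0.09, adjusted p = 0.017, edgeR).

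The 12 largest decreases also included Cfap46, Wdr19 and Adamts3. Cfap46, a protein of the axoneme of motile cilia, had 5.63, 6.87 and 6.9 CPM at day 30 and 11, 8.56 and 11.3 CPM at day 14 (-0.67 ± 0.15, adjusted p = 0.048, edgeR). Wdr19, a part of the transport machinery inside cilia, averaged 15.2 ± 0.31 CPM at day 30 and 20.4 ± 1.7 CPM at day 14 (-0.42 ± 0.1). Adamts3, a protease that processes procollagen and the lymphatic growth factor VEGF-C (GRCm38 chr5:89677087-89883334), had the largest decrease, with 5.01, 6.36 and 6.25 CPM at day 30 and 9.54, 10.3 and 9.59 CPM at day 14 (-0.74 ± 0.16, adjusted p = 0.042, edgeR). Of 13 ependymal genes, the cells that carry motile cilia, 0 were called, with 7 above and 6 below 0 and a median of 0.02. Neither Cfap46 nor Adamts3 was called in any of the 6 fits that left out a library, where their adjusted p ran from 0.076 to 0.21 and from 0.095 to 0.16.

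A pair of channels of myelinated axons fell. Scn8a, the sodium channel of nodes of Ranvier and axon initial segments, had 305, 307 and 352 CPM at day 30 and 446, 442 and 425 CPM at day 14 (-0.45 ± 0.08, adjusted p = 0.023, edgeR). Kcna2, a potassium channel found beside the nodes, had 480, 491 and 506 CPM at day 30 and 636, 644 and 597 CPM at day 14 (-0.35 ± 0.08, adjusted p = 0.046, edgeR). For both, every day 30 library lay below every day 14 library.

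They were the 2 called members of 15 neurofilament and large-neuron genes (13.3%), of which 12 were below 0, with a median of -0.15. Kcna2 was the 1 called member of 41 potassium channel genes (2.44%), of which 31 were below 0, with a median of -0.13. Of all genes tested 0.408% were called. With the length offsets described below the medians were -0.15 and -0.07, with 0 members called in either list. Both genes are long, with 15766 and 11906 bases in the deposited table. The remaining named decreases were Zc3h6, a zinc finger gene (-0.57 ± 0.11), Prrc2c, a stress granule protein gene (-0.48 ± 0.1), Gse1, a chromatin cofactor gene (-0.44 ± 0.1), Ubr4, a ubiquitin ligase (-0.41 ± 0.08), Bod1l, a replication fork protein gene (-0.39 ± 0.08), and Pdgfrb, the growth factor receptor of pericytes (-0.39 ± 0.09).

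Gene length differed between the called directions. The 39 higher genes had a median length of 2774 bases in the deposited table, and the 52 lower genes one of 10490 bases, beside 2962 for all genes tested. Of the lower genes 39 were over 8000 bases and 0 under 2000, and of the higher genes 2 were over 8000 and 16 under 2000.

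The gradient also ran through called and uncalled genes together. Among genes of at least 1 CPM outside the mitochondrial genome, the median log2 difference was 0.16 over 1018 genes under 1000 bases, 0.08 from there to 2000 bases and 0.03 up to 4000. It was -0.02 up to 6000 bases, -0.05 up to 8000, -0.09 up to 12000 and -0.16 over the 606 genes above that. Genes over 8000 bases took 19.9% to 20.2% of nuclear gene counts at day 30 and 21.2% to 21.6% at day 14, and genes under 1000 bases took 2.57% to 2.72% at day 30 and 2.22% to 2.28% at day 14 (exact permutation test, two-sided p = 0.1 for each share, the smallest possible). Day 14 contralateral libraries stood above every other library of the series in the long-gene share: day 0 libraries lay between 18.9% and 21.1% and day 7 contralateral ones between 19.1% and 20.1%. In the share of genes under 1000 bases the day 14 contralateral libraries lay below every other library. That share was 2.32% to 2.85% at day 0 and 2.32% to 2.66% in the day 7 contralateral libraries.

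**Figure D3:**
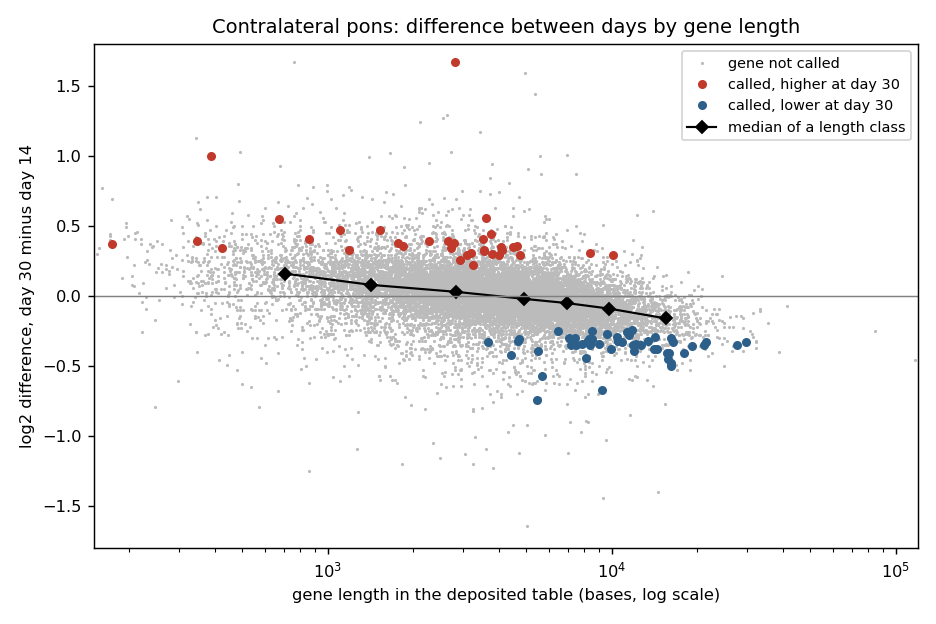
Each point is a nuclear gene of at least 1 CPM, by its length in bases (log axis) and its log2 difference, day 30 minus day 14. Called genes are coloured by direction and diamonds are medians of 7 length classes, which step down from 0.16 to -0.16; 39 of the 52 lower genes are over 8000 bases long.

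With offsets that removed the length trend of each library, an alternative chosen after the data were seen, 28 genes were called (0.126%), 20 higher (0.0897%) and 8 lower (0.0359%), and 22 of them were among the 91. Of the 39 higher genes 14 remained and of the 52 lower genes 8 did. Those named above that remained were mt-Rnr2, Hspa1b, Gas5, Rpl34, Rpl22-ps1 and Tmem256 on the higher side and Dync2h1, Prrc2c, Zc3h6, Adamts3 and Hspa4l on the lower side. Also remaining, and named here after their values were seen, were the spliceosome genes Prpf8 and Snrnp200 and the centrosome gene Pcm1, all lower.

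Prpf8, the core protein of the spliceosome, had 188, 189 and 184 CPM at day 30 and 254, 228 and 234 CPM at day 14, with a log2 difference of -0.35 ± 0.07, or -0.29 ± 0.05 with the offsets. Snrnp200, the helicase that unwinds the spliceosome's RNAs, had 98.9, 105 and 102 CPM at day 30 and 133, 126 and 129 CPM at day 14, and -0.34 ± 0.06, or -0.27 ± 0.05 with the offsets. For both the groups did not overlap. Dync1h1 kept its direction at -0.24 with the offsets but was not called, and so did Scn8a (-0.28), Kcna2 (-0.22), mt-Co1 (0.49) and Ndufs5 (0.28). The ribosomal protein median was 0.19 with the offsets and the mitochondrial median 0.49, with 1 of 79 and 1 of 15 members called.

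Myelin and its cells showed a few called genes within lists whose medians were 0 and -0.05. Mbp, a major structural protein of central myelin, had 13100, 13600 and 14800 CPM at day 30 and 10200, 12200 and 11100 CPM at day 14 (0.31 ± 0.07, adjusted p = 0.048, edgeR). In the unoperated pons at day 0 Mbp had 14300, 15100 and 15200 CPM, so day 30 did not exceed that level. Plekhb1, a membrane adaptor, had 1210, 1250 and 1310 CPM at day 30 and 1010, 1050 and 971 CPM at day 14 (0.32 ± 0.07). These were 2 of 20 myelin and mature oligodendrocyte genes, 10 above and 10 below 0, with a median of 0.

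Bcas1, a marker of newly formed myelinating oligodendrocytes, had 800, 838 and 821 CPM at day 30 and 672, 691 and 641 CPM at day 14, and rose by 0.3 ± 0.06 (adjusted p = 0.038, edgeR). At day 0 Bcas1 had 663, 694 and 699 CPM. All 3 day 30 libraries lay above the day 14 libraries, and it was the 1 called gene of 19 on the precursor and new oligodendrocyte list, whose median was -0.05. Mbp and Bcas1 both stayed called with the length offsets (0.39 and 0.29), while neither was called in any of the 6 fits without a library.

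Among astrocyte genes 1 of 20 was called, Ppp1r3c, which targets a phosphatase to glycogen (83 ± 3.5 CPM at day 30, 65.4 ± 6.2 CPM at day 14, 0.34 ± 0.08); the median was 0.1. Gfap, the filament gene of reactive astrocytes, had 871, 770 and 634 CPM at day 30 and 664, 606 and 701 CPM at day 14, groups that overlap (adjusted p = 0.65, edgeR). Pdgfrb was the 1 called gene of 14 pericyte and smooth muscle genes, with 26.1, 27.6 and 22.2 CPM at day 30 and 32, 33.9 and 33.7 CPM at day 14, and the median of that list was -0.03. Its 2 groups were separate, and the other 13 members missed the threshold.

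**Figure D4:**
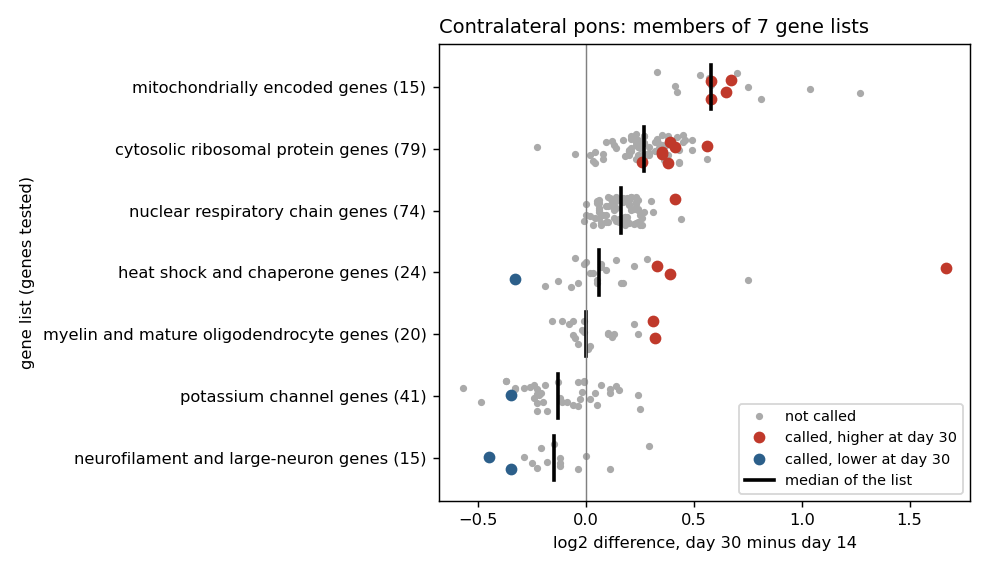
Each point is the log2 difference, day 30 minus day 14, of 1 member of 7 gene lists, and bars are list medians. Coloured points were called, and medians run from 0.58 for mitochondrially encoded genes and 0.27 for ribosomal protein genes to -0.13 for potassium channel and -0.15 for neurofilament and large-neuron genes.

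Microglial genes gave no call, of 16 homeostatic genes (median 0.1) and of 24 activation genes (median 0.18). Aif1, which encodes the microglial marker IBA1 and was a check gene outside both lists, had 6.31, 4.5 and 4.7 CPM at day 30 and 3.47, 3.63 and 3.33 CPM at day 14, and the groups were separate (0.57 ± 0.16), yet the adjusted p was 0.095 by edgeR. Tyrobp, the signalling adaptor of TREM2, had 19.9, 19.2 and 19.9 CPM at day 30 and 13.6, 16.4 and 15.5 CPM at day 14 (0.38 ± 0.1, adjusted p = 0.086, edgeR). Cd63, a lysosomal tetraspanin, averaged 38.7 ± 0.78 CPM at day 30 and 31.9 ± 0.71 CPM at day 14 (0.28 ± 0.07, adjusted p = 0.074, edgeR). With the length offsets Aif1 was at 0.49 ± 0.15, Tyrobp at 0.22 ± 0.1 and Cd63 at 0.16 ± 0.06 (adjusted p = 0.18, 0.44 and 0.33, edgeR). Cd63 and Tyrobp belong to the activation list and also had separate groups, whereas Cx3cr1 of the homeostatic list, 1 copy of which is replaced in this line, averaged 18.7 ± 3.5 CPM at day 30 and 19.3 ± 3.5 CPM at day 14 (-0.04 ± 0.15).

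Other immune lists had 0 called genes as well: 11 MHC class II and costimulation genes had a median of 0.36, with H2-Eb1 at 6.93, 6.53 and 5.21 CPM at day 30 and 3.18, 3.94 and 5.94 CPM at day 14, and 38 interferon-stimulated genes had a median of -0.04. Of 23 axotomy response genes 0 were called (median 0.04). Gal, a neuropeptide of injured neurons, had 9.53, 6.75 and 6.86 CPM at day 30 and 7.24, 5.71 and 6.94 CPM at day 14, so its groups overlapped. Of 17 motor neuron and cholinergic genes 0 were called (median 0.09), and Chat, the enzyme that makes acetylcholine and a defining marker of facial motor neurons, was present at 42.4, 30.6 and 33.3 CPM at day 30 and 39.8, 35.5 and 36.5 CPM at day 14.

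Clock repressors and output genes (0 of 13 called, median 0.02) and immediate early genes (0 of 26 called, median 0.13) can reflect the hour and the handling at tissue collection. The nearest to the threshold were Cry1, a clock repressor (0.4 ± 0.11, adjusted p = 0.11, edgeR), and Nr4a3, an activity-induced nuclear receptor (0.55 ± 0.19, adjusted p = 0.2, edgeR). Nr1d1, another clock repressor, went the other way (-0.39 ± 0.16, adjusted p = 0.31, edgeR), with groups that overlap. Clock members were 8 above and 5 below 0, so their median does not show opposed changes. The immediate early list had 19 members above 0 and 7 below, and its summed level was 370 to 426 CPM at day 30 and 357 to 359 CPM at day 14. On the lesion side Nr4a3 was called (0.86 ± 0.19, adjusted p = 0.018, edgeR). Whether the hour or the handling had a part in the Hspa1b difference was not tested.

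Markers of tissue next to the pons varied between single libraries. Ttr, the main secretory product of the choroid plexus, had 8.86, 14.6 and 25.9 CPM at day 30 and 112, 49.6 and 878 CPM at day 14, so day 14 replicate 3 stood far above the rest, and the log2 difference of -4.39 ± 1.91 was not called (adjusted p = 0.35, edgeR). Without that library the Ttr difference was -2.3, and over the 6 fits without 1 library its adjusted p ran from 0.41 to 0.68. Of 13 choroid plexus genes 0 were called and 12 were below 0, with a median of -1.25, and their summed level was 587 to 615 CPM at day 30 and 744 to 1990 CPM at day 14. Cerebellar neuron genes (0 of 15 called) had a median of -0.36 and summed to 418 to 427 CPM at day 30 and 447 to 552 CPM at day 14. Summed levels of both neighbouring tissues were thus higher at day 14 than at day 30, and their part in the decreases above was not tested. In the contralateral pons at day 7 the choroid plexus genes summed to 653 to 674 CPM and the cerebellar genes to 493 to 629 CPM.

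Values of the other days place the 2 groups. mt-Rnr2 had 2120 to 2550 CPM in the day 0 libraries, 3020 to 3300 in the contralateral pons at day 7, 2860 to 3080 at day 14 and 4170 to 5220 at day 30. Hspa1b, over the same order of days, had 0.796 to 1.42, 0.718 to 1.1, 0.986 to 1.28 and 2.36 to 4.82 CPM. For mt-Rnr2 and Hspa1b day 30 stood apart from all earlier days. Dync1h1 had 810 to 980, 842 to 933, 957 to 1100 and 761 to 784 CPM in that order. It was lowest at day 30 and highest at day 14, and neighbouring days overlapped except for the last pair and days 7 and 14. Not every called gene stood apart at day 30. Rpl12 had 6.71 to 8.55 CPM at day 0 and 6.62 to 8.33 at day 30. Cfap46 had 5.3 to 6.53 CPM in the contralateral pons at day 7 and 5.63 to 6.9 at day 30.

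**Figure D5:**
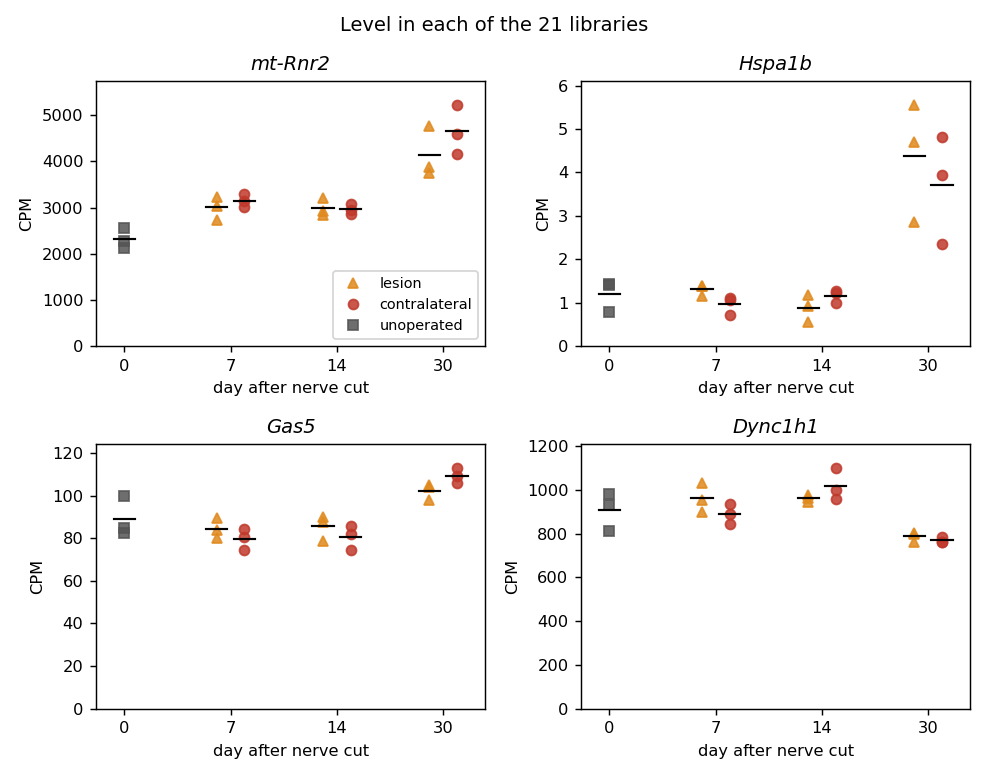
Each point is the CPM of 1 of the 21 libraries by day after the nerve cut, with bars at group means of 3 libraries and axes from 0. Contralateral mt-Rnr2, Hspa1b and Gas5 are highest at day 30 and Dync1h1 is lowest there, at 761 to 784 CPM.

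Against the contralateral pons at day 7, day 30 had 24 called genes (0.108%), 17 higher (0.0763%) and 7 lower (0.0314%), and day 14 had 5 (0.0224%), all higher. Leaving out 1 library gave 1 to 21 calls for day 30, the 1 without day 30 replicate 3, and 0 to 30 for day 14, the 30 without day 7 replicate 3 and 0 without day 14 replicate 2 or 3 or day 7 replicate 1 or 2. These comparisons share the day 30 and the day 14 libraries with the main one, so their values are set side by side only. The 39 higher genes had a median log2 difference of 0.37 from day 14, 0.2 for day 30 minus day 7 and -0.14 for day 14 minus day 7. The 52 lower genes had medians of -0.34, -0.14 and 0.2 in the same comparisons. Both sets were chosen for their difference between days 30 and 14, so these medians are a description only.

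Single genes differed from those medians. Hspa1b was 1.95 ± 0.3 and Gas5 0.45 ± 0.07 above day 7 at day 30 (adjusted p = 0.0072 and 0.0076, edgeR), and at day 14 they were 0.27 ± 0.35 and 0.02 ± 0.07 above it. Adamts3 was -0.2 ± 0.16 from day 7 at day 30 and 0.54 ± 0.15 above it at day 14, and Cfap46 0.18 ± 0.16 at day 30 and 0.85 ± 0.15 at day 14 (adjusted p = 0.044, edgeR). The long noncoding RNA Miat and the guanine exchange factor gene Dock9 were higher at day 14 than at day 7 (0.42 and 0.37, adjusted p = 0.026 each, edgeR), and are named after their values were seen. By length class, the median for day 30 minus day 7 was 0.04 under 1000 bases and 0.02 over 12000, and for day 14 minus day 7 it was -0.13 and 0.18.

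On the lesion side, the day 30 minus day 14 comparison called 390 genes (1.75%), 168 higher (0.754%) and 222 lower (0.996%). This comparison was not repeated with other settings or without single libraries, so its dependence on them was not tested. Day 14 lesion replicate 2 stood apart from replicates 1 and 3. Its mitochondrial share of counts was 2.81%, beside 4.48% and 4.4%. Its long-gene share was 18.7%, beside 20.7% and 19.8%. Values on that side for the genes above were 2.28 ± 0.29 for Hspa1b, 1.28 ± 0.24 for Hspa1a, 0.47 ± 0.09 for mt-Rnr2, 0.65 ± 0.09 for mt-Co1 and -0.28 ± 0.07 for Dync1h1, all called. Gas5 was at 0.26 ± 0.07 and missed the threshold (adjusted p = 0.062, edgeR), Rpl22-ps1 was at 0.14 ± 0.15, Dync2h1 at 0 and Adamts3 at 0.15 ± 0.15. As medians, the 39 higher genes were at 0.17 and the 52 lower genes at -0.07 on the lesion side. Length classes ran the other way there, from -0.07 under 1000 bases to 0.08 over 12000. Whether that order held without day 14 lesion replicate 2 was not tested.

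The difference between the sides of this change was tested directly and called for 18 genes (0.0807%), with the lesion change below the contralateral one in all 18. That direction did not hold in every fit: leaving out day 14 lesion replicate 1 gave 938 calls, 476 higher and 462 lower, and DESeq2 gave 200, 71 higher and 129 lower. Leaving out any other of the 12 libraries gave 5 to 16 calls, all lower except 2 of 16 without day 14 contralateral replicate 1. None of the 91 genes was among the 18. The largest estimates of this difference among the called genes named above were 0.9 ± 0.22 for Adamts3 (adjusted p = 0.12, edgeR) and -0.86 ± 0.23 for Rpl22-ps1 (adjusted p = 0.15, edgeR).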

How the data were processed

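RNA of a ventral pons block was made into stranded messenger RNA libraries from 300 ng, per the labels' protocols, and read as 50-base single reads. Per the submitters' processing notes, reads were called with CASAVA 1.8.2 and processed with Rsubread, featureCounts and limma on GRCm38.p4 and GENCODE M7. The deposited count table holds whole-number counts per gene, and the deposited log2 matrix holds the authors' voom values for genes above the 32nd percentile of summed counts. Whether counting used strand is not given in the sources used here, so overlapping and antisense genes cannot be told apart. Day 30 columns carry side letters opposite to the labelled side, and the sample descriptions and the log2 matrix both assign them as used here.

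Counts were tested with edgeR 4.0.16 under R 4.3.3, scaled by TMM and fitted by its robust quasi-likelihood method (7 groups of 3 libraries, 14 residual degrees of freedom, genes with a summed count of at least 30, Benjamini-Hochberg, adjusted p under 0.05). SE is the log2 difference divided by the square root of F. Alternatives used DESeq2 1.42.0 and limma 3.58.1. The scripts were tested on simulated data. Depth was 17956784 to 21908496 counts in the 6 libraries. Positions are from GENCODE M21 (GRCm38). Named genes were the 12 higher and 12 lower calls with the largest difference, at least 1 CPM and separate groups, up to 4 called or 2 uncalled members of each described list, and 8 check genes. Other genes, among them Hspa1a, Rpl23 and Rpl35a, are named after their values were seen. A total of 50 lists was examined, of which 39 held 0 calls over 717 tested members. Members and lists were chosen with earlier results of these data known.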

Additional observations from a re-analysis of the deposited data

Results flagged for a closer look

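In 5 named genes the day 30 minus day 14 difference was unequal between the sides of the pons, by the test of that difference itself (edgeR's quasi-likelihood test, adjusted over all genes), with the lesion value below the contralateral one.

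Uck2, a uridine kinase of pyrimidine salvage, had 43.4, 40.9 and 41.8 CPM in the lesion pons at day 30 and 60.6, 60.5 and 64 CPM at day 14. The contralateral pons had 34.6, 32.8 and 30.9 CPM at day 30 and 30.6, 28.7 and 31 CPM at day 14, and the difference of the log2 changes was -0.68 ± 0.1 (adjusted p = 0.0049, edgeR). Avpr1a, the vasopressin receptor 1a, had a log2 difference of -1.45 on the lesion side and 0.42 on the contralateral side, a difference of -1.88 ± 0.29. Its contralateral libraries had 2.84, 3.32 and 3.62 CPM at day 30 and 3.38, 1.4 and 2.47 CPM at day 14.

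Il4ra, a receptor subunit for interleukin 4, was at -0.79 on the lesion side and 0.05 on the contralateral side, a difference of -0.83 ± 0.13. Itga7, a laminin-binding integrin, was at -1.12 on the lesion side and -0.03 on the contralateral side, a difference of -1.09 ± 0.16. Gadd45a, a stress and growth arrest gene, was at -1.04 on the lesion side and 0.01 on the contralateral side, a difference of -1.06 ± 0.18 (adjusted p = 0.013, edgeR). In all of these except Avpr1a the contralateral log2 difference stayed within 0.12 of 0, and none of the 5 was called on the contralateral side.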

How the results depend on the processing

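For day 30 against day 14, against 91 calls, DESeq2 gave 509, limma-voom 15 (60% higher against 42.9%), limma on the deposited log2 matrix 1, mitochondrially encoded genes left out 29, no filter beyond 1 count 374, length offsets 28 (71.4% higher), only the 6 libraries compared 1224, an absolute log2 difference of at least 1.7 0, and an adjusted p under 0.01 7. Leaving out 1 library gave 0 to 12. DESeq2 size factors (78), a 1 CPM filter (118) and GC offsets over 20925 genes (116) stayed within 1.5 times.

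For the difference between sides, against 18 calls, 0 of them higher, the same settings gave 200 with DESeq2 (71 higher), 6 with the deposited matrix, 331 with no filter (140 higher), 92 with only the groups compared (36 higher), 1 and 4 with the stricter thresholds, and 5 to 938 without 1 library (476 higher of the 938, without day 14 lesion replicate 1). For day 14 against day 7, against 5 calls, they gave 223, 0 with limma-voom, 3 without mitochondrial genes, 239 with no filter, 3 with the 1 CPM filter, 1 with length offsets, 307 with only the groups compared, 0 and 0 with the stricter thresholds, and 0 to 30 without 1 library. For day 30 against day 7, against 24 calls, they gave 166, 0 with the deposited matrix, 15, 104, 40, 59 with length offsets, 140, 1 and 5, and 1 to 21 without 1 library; GC offsets gave 20, of which 19 were higher, against 17 of 24. The cause was not tested.

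Deviations of same-numbered day 30 and day 14 contralateral libraries correlated at 0.01, 0 and 0.08, which gave no pairing across days. Between the sides, same-numbered lesion and contralateral libraries correlated at 0.21, 0.21 and 0.19 at day 30 and at 0.27, 0 and 0.17 at day 14; every library correlated best with its own number except replicate 2 at day 14, a hint from the data and not the design. With the replicate number as a block the counts were 353, 85 (25 higher), 120 and 66 in the order above, and limma-voom with a correlation of 0.13 between libraries of 1 day and number gave 15, 24 (2 higher), 0 and 25.

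No called named gene changed sign. Among the uncalled ones, Chat ran from -0.22 to 0.02 over fits without 1 library (0.02 without day 30 replicate 2), Cx3cr1 from -0.21 to 0.04, with 0.02 and 0.04 without day 30 replicate 2 or 3 and 0.03 and 0.04 without day 14 replicate 1 or 2, Sprr1a from -0.24 to 1.44, with -0.24 without day 30 replicate 1, and Miat was at 0.04 with length offsets. Low genes such as Hspa1b and Sprr1a rest on few counts per library.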
